A study of Mus musculus with 4 samples.

Results

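The Mediator complex was described across a pooled CRISPR-Cas9 knockout screen, as the 33 genes of 20380 in the screen table whose symbol is Med followed by a number, with or without an l, or is Cdk8, Cdk19 or Ccnc. The screen used E14, an established mouse embryonic stem cell line with the genotype MERVL-tdTomato, in which a fluorescent protein reports the endogenous retrovirus MERVL. All 4 libraries come from cells that carried both the reporter and the lentiviral guide library (130209 guides against 20611 genes). The cells behind every library received lentivirus over 24 h, with polybrene at 4 ug/mL, and then puromycin at 2 ug/mL over 48 h, which kills cells without the vector. Of these, 2 libraries hold guides from cells sorted as MERVL-positive at day 5 and 2 hold guides from total cells. The labels call them sequencing repeats and name no separate cultures, so no p-value here can be taken to measure spread between cultures. About 500000 cells were sorted, which is 3.84 cells per guide of the library. The cells were chosen by a reporter in 1 cell line, and guide DNA was counted, so neither MERVL RNA nor stem cell markers were measured here.

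Mediator carries signals from DNA-bound transcription factors to RNA polymerase II. Its head and middle modules contact the polymerase and its general factors, the tail module receives most activators, and Med14 is the scaffold that holds them together. A separable kinase module, built of Cdk8 or its paralogue Cdk19, cyclin C, Med12 and Med13, binds the middle module and keeps the polymerase away while it is bound. Mediator is concentrated at the enhancers of pluripotency genes in embryonic stem cells, and the head and middle subunits are needed by many dividing cells.

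The only values are the authors' comparison of the groups. The authors' deposited table gives each gene 1 log2 fold change, and for each direction a p-value, a false discovery rate (FDR), a rank and how many guides passed a loose guide threshold, called guides up and guides down here. That threshold lies near the lowest 37.9% and the highest 37.4% of guides, so a guide past it need not differ between the groups. The table gives no value per library, so no gene has an error or a spread over libraries, and the read depth is unknown. The numerator of the fold change is not stated. A positive value is likely to mean more guides in MERVL-positive cells, because the title links loss of Ints7 to active MERVL and Ints7 has an enrichment p of 0.00714 and a depletion p of 0.846 according to the authors' deposited table. In the same table Ints7 itself was not called, with an enrichment FDR of 0.931, a fold change on the log2 scale of 0.14, 3 of 6 guides up and 1 down. The basis for the direction is thus weak and is the study's own result, and with the other reading every direction below turns.

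No Mediator gene passed an FDR of 0.05 in either direction of the MAGeCK test, according to the authors' deposited table. The lowest FDR was 0.985 for enrichment and 0.713 for depletion. Over all genes, 0% were called for enrichment and 0.00491% for depletion at this threshold, which is 1 gene. At an unadjusted p under 0.05, 4 of the 33 members (12.1%) passed for depletion, Cdk8, Med26, Med31 and Med10, beside 5.07% of all genes. In the other direction 1 of 33 (3.03%), Cdk19, had an enrichment p under 0.05, beside 5.02% of all genes. These 5 belong to the kinase module, the middle module and the Med26 position, and no head or tail subunit had an unadjusted p under 0.05 according to the authors' deposited table. With 5.07% and 5.02% of all genes passing, 0 of 7 head or 9 tail genes is not read as a trait of those modules.

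The centre of the complex lay close to that of all genes. The median log2 fold change of the 33 members was -0.0018, beside -0.021 over all genes, and 16 members were above 0 and 17 below. Above 0 were 48.5% of the members, beside 48.0% of all genes. The standard deviation over the 33 members was 0.40. It was 0.48 over all genes and 0.46 over the genes with 6 guides, the number that 30 members have. In 26 of the members the value lay between -0.5 and 0.5. Med26 was the single member outside the range from -1.09 to 0.81 that held the central 95% of all genes. No member left the range from -1.65 to 1.34 that held the central 95% of the 998 single non-targeting guides, although a gene value combines mostly 6 guides and a control entry is 1 guide.

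**Figure D1:**
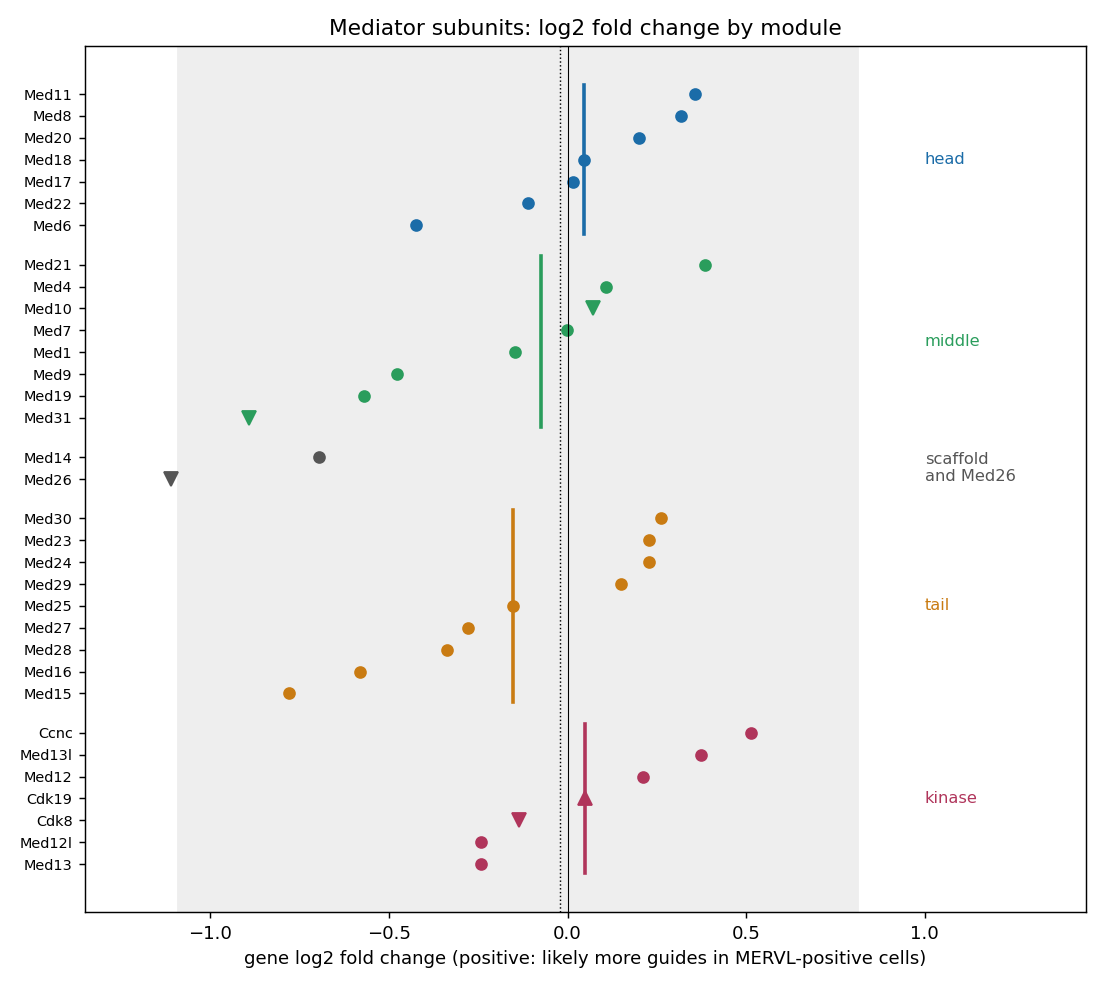
Log2 fold change of each of the 33 Mediator genes (horizontal axis), by module on the vertical axis. Triangles mark an unadjusted p under 0.05 (down for depletion, up for enrichment), coloured bars are module medians, the grey band holds the central 95% of 20380 genes, the solid line is 0 and the dotted line is the median of all genes. Med26 alone lies outside the band, at -1.11.

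The shares of guides up and down were close to those over all genes. The members have 195 guides according to the authors' deposited table, 6 for 30 genes and 5 for Med4, Med16 and Med19. Of these guides, 66 were up, which is 33.8% (exact Clopper-Pearson 95% interval 27.2 to 41.0), and 72 were down, 36.9% (30.1 to 44.1). Over all genes the shares were 37.4% up and 38.0% down, both within these intervals, which cover counting error only. Guides of 1 gene share a target and are not replicates.

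The Mediator genes lie on 17 chromosomes, and all 33 were matched by symbol to the RefSeq table of GRCm38.p6, which has mm10 coordinates. Med12 and Med14 are on the X chromosome.

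The head module, which touches the polymerase and the general factors, had no subunit near a threshold. Its 7 members had a median log2 fold change of 0.047, and 5 were above 0. Med11, the partner of Med22, had the highest value according to the authors' deposited table, 0.36, and had 3 guides up and 1 down. Med8, whose end holds the movable jaw of the head, followed at 0.32, with 3 guides up and 2 down, and Med20, the partner of Med18 in the movable jaw, had 0.20 with 3 up and 1 down according to the authors' deposited table. Med18 itself had 0.047, with its 6 guides split into 3 up and 3 down.

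Med17, the central scaffold of the head, stood at a log2 fold change of 0.015 according to the authors' deposited table, a ratio of 1.01, and had 3 guides up and 2 down. Med22 had -0.11 with 2 guides in each direction. Med6, which sits where head and middle meet, was lowest of the head at -0.43 according to the authors' deposited table, with 3 guides down, 1 up and a depletion p of 0.469. The lowest p of any head subunit in either direction was 0.225, the enrichment p of Med11. Head guides were 42.9% up (27.7 to 59.0) and 33.3% down (19.6 to 49.5) of 42.

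The middle module connects the head to the tail and docks the kinase module. Its 8 members had a median of -0.075, with 3 above 0 and 5 below, and spanned the widest range of any module, from -0.89 to 0.39. Med31, a small conserved subunit that binds Med7, on chromosome 11 from 72211724 to 72215592, had the lowest value according to the authors' deposited table. Its log2 fold change was -0.89, a ratio of 0.539, with 3 guides down and 1 up, a depletion p of 0.0292 and an FDR of 0.969.

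Med21, which forms a hinge with Med7, stood at the other end of the middle module according to the authors' deposited table, at 0.39, and had 3 of its guides up and 1 down. Its enrichment p was 0.0704, and its depletion p was 0.846. Its partner Med7 had -0.0018 according to the authors' deposited table, which is the complex's median, and 2 of its guides were up and 3 down.

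Med19, a subunit at the hook of the middle module where RNA polymerase II and the REST repressor bind, had -0.57 according to the authors' deposited table, with 3 of 5 guides down and 2 up. Med9, a partner of Med4, had -0.48 with 3 guides down and 1 up, and a depletion p of 0.117. Med4 had 0.11, with 1 guide up and 2 down of 5. Med1, the large subunit that nuclear receptors bind, had -0.15 according to the authors' deposited table, and 4 of its 6 guides were past the guide threshold in neither direction, the most of any member.

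For Med10, a subunit at the hook with Med14, the fold change and the p-value pointed opposite ways according to the authors' deposited table. Its depletion p was 0.0367 with an FDR of 0.975, while its log2 fold change was 0.072. It had 2 guides down, 2 up and 2 in between. Middle module guides were 28.3% up (exact 95% interval 16.0 to 43.5) and 39.1% down (25.1 to 54.6) of 46.

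Med26 is a subunit of animals that joins Mediator at the middle module when the kinase module is away, and it recruits the super elongation complex. Its gene spans 72494555 to 72548310 on chromosome 8 (mm10). According to the authors' deposited table, all 6 of its guides were down and its log2 fold change was -1.11, a ratio of 0.463. This was the lowest value of the 33 genes and the 486th lowest of 20380. Its depletion p was 0.00444, its depletion rank 97 of 22510 entries and its FDR 0.846 according to the authors' deposited table.

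Med26 was the single Mediator gene with every guide on one side. All 6 guides were down in 59 genes of the 16270 with 6 guides according to the authors' deposited table, and these had a median log2 fold change of -1.03. Med26 stood in place 23 of the 59, counted from the lowest.

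Med14, the scaffold on the X chromosome from 12675368 to 12762594, stood at a log2 fold change of -0.70 according to the authors' deposited table, a ratio of 0.617. Its guides were less even than those of Med26, with 3 down and 2 up. Neither p passed 0.05, with 0.307 for depletion and 0.129 for enrichment according to the authors' deposited table.

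**Figure D2:**
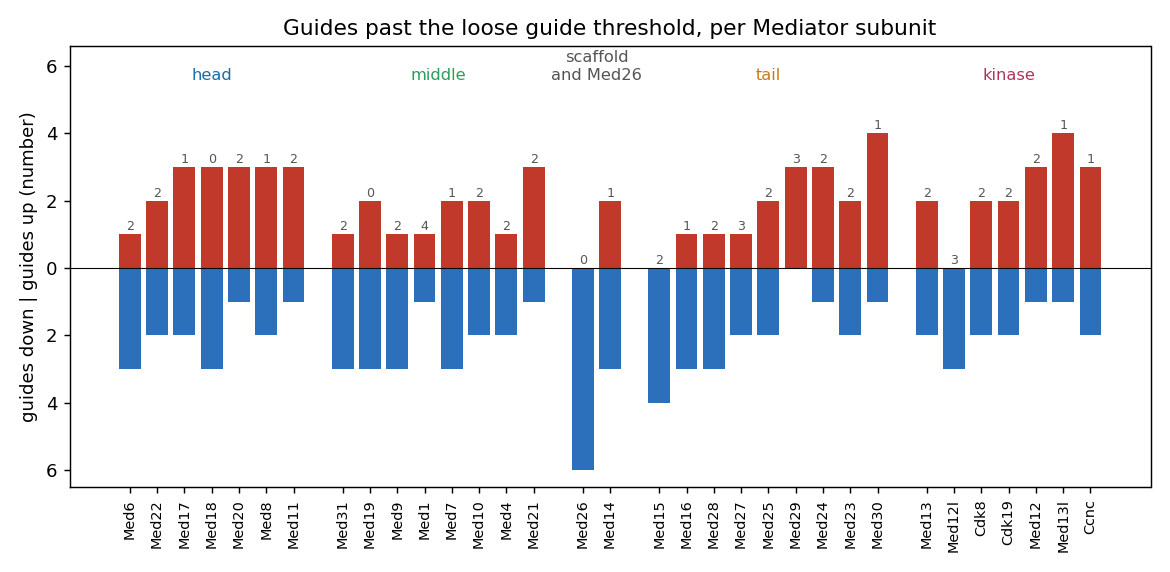
Number of guides up (red, above 0) and down (blue, below 0) for each Mediator gene, by module and ordered by log2 fold change within it. The grey number over each bar is the count of guides in between, and each gene has 5 or 6 guides in all. Med26 has 6 guides down, Med15 has 4 down and none up, and the guides of Cdk8 and Cdk19 split evenly.

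The tail module binds most activators and is needed less generally than the head and middle. Its 9 members had a median of -0.15, with 4 above 0 and 5 below, and none had an unadjusted p under 0.05. The lower part was led by Med15, the target of SMAD and SREBP factors, with -0.78 according to the authors' deposited table. Med15 had 4 guides down and none up, yet its depletion p was 0.258. Med16, which forms the lower tail with Med24 and Med23, had -0.58 with 3 of 5 guides down and the lowest tail p, 0.189 for depletion, according to the authors' deposited table.

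The subunits that stand nearest to Med16 lay on the other side of 0. Med24 had 0.23 with 3 guides up and 1 down, and Med23, the target of the growth-factor responsive ELK1, had 0.23 with 2 guides in each direction according to the authors' deposited table. Med25, the target of several viral and ETS activators, had -0.15, again with 2 guides in each direction.

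Med27 to Med30 link tail and head. Med28 had -0.34 with 3 guides down and 1 up, and Med27 had -0.28 with 2 down and 1 up according to the authors' deposited table. Med29 had 0.15 with 3 guides up and none down, the single member with no guide down, and Med30 had 0.26 with 4 up and 1 down. Med28 and Med27 were thus below 0 and Med29 and Med30 above, and all 4 had p-values between 0.271 and 0.977 according to the authors' deposited table. Tail guides were 32.1% up (exact 95% interval 19.9 to 46.3) and 34.0% down (21.5 to 48.3) of 53.

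The kinase module holds the enzyme of the complex, a cyclin-dependent kinase with cyclin C that phosphorylates transcription factors and polymerase. Its 7 members had a median of 0.048, with 4 above 0 and 3 below. Cyclin C, Ccnc, which serves Cdk8 and Cdk19 alike, had the highest log2 fold change of the 33 genes according to the authors' deposited table, 0.51, a ratio of 1.43. Its guides were 3 up and 2 down, and its p-values were close in both directions, 0.201 for enrichment and 0.221 for depletion.

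Cdk8, on chromosome 5 from 146230795 to 146302874, had the best rank of any Mediator gene according to the authors' deposited table. It stood at depletion rank 19 of 22510, with a depletion p of 0.00067 and an FDR of 0.713. Its log2 fold change according to the authors' deposited table was -0.14, a ratio of 0.910, and 14 members had a lower value. The 6 guides were 2 down, 2 up and 2 in between, and the enrichment p of 0.0611 was the second lowest of the 33 genes according to the authors' deposited table. Among all other genes, 1 had both p-values at or below those of Cdk8.

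The score behind the ranks shows how few guides set the place of Cdk8. If the deposited score is a robust rank aggregation, each gene takes its best guide, its best 2 guides and so on, and keeps the most extreme result. Under this reading the highest score of 6-guide genes with a given number of guides past the threshold follows from the threshold, and predicted and observed values differed by at most 0.00192. The depletion score of Cdk8, 0.000123, was the lowest of the 5114 genes with 6 guides of which 2 were down. It corresponds to 1 guide in the lowest 0.00205% of guides, or to 2 guides in the lowest 0.287%, and the table does not show which. The score of Med26, 0.000852, can come from any number from 1 guide in the lowest 0.0142% to all 6 in the lowest 30.8%. For Med31 it can come from 1 guide in the lowest 0.117% or up to 3 guides in the lowest 7.46%, and for Med10 from 1 guide in the lowest 0.153% or 2 in the lowest 2.55%.

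The gene fold change behaved like a median over guides. Of the genes with 6 guides, none of the 2529 with 4 or more guides down was above 0, and none of the 2367 with 4 or more guides up was below 0 according to the authors' deposited table. A gene with 1 or 2 extreme guides can therefore have an extreme rank and a fold change near 0. Cdk8 and Med10 paired a depletion p under 0.05 with values of -0.14 and 0.072, and the table does not show whether 1 or 2 guides set their scores.

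**Figure D3:**
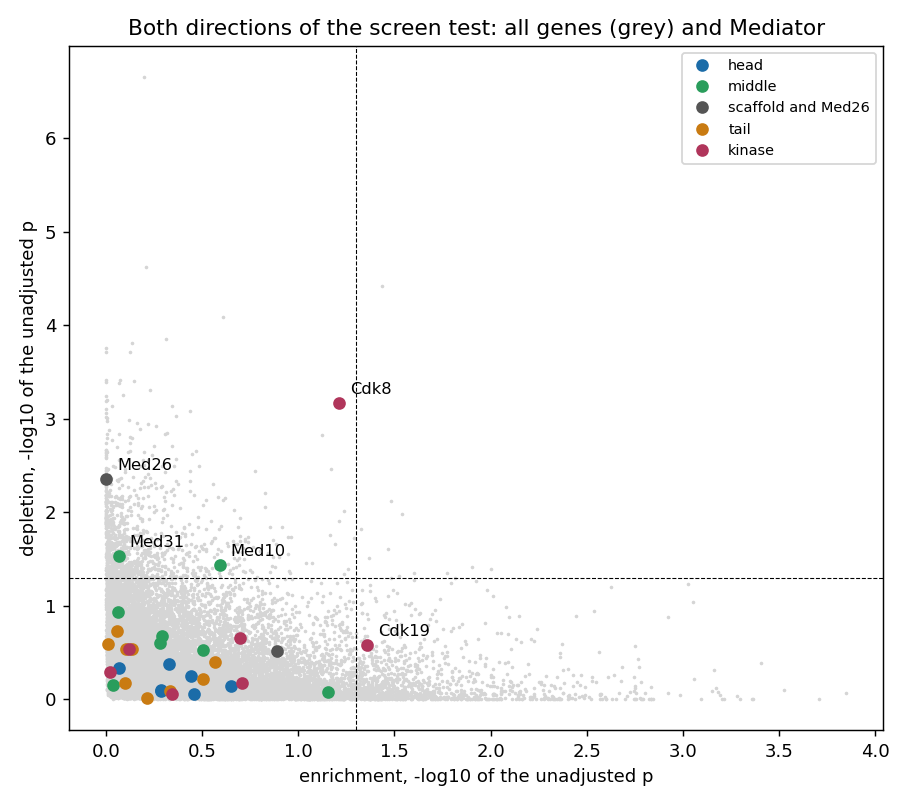
Unadjusted enrichment p (horizontal axis) and depletion p (vertical axis), both as -log10, for 20380 genes in grey and the 33 Mediator genes coloured by module. Dashed lines mark the threshold of 0.05. Cdk8 stands at 0.00067 for depletion and 0.0611 for enrichment, while Med26 stands at 0.00444 for depletion and 0.998 for enrichment.

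The kinase module has 3 pairs of paralogues, whose members replace each other in single complexes. Cdk19 (chromosome 10, 40349287 to 40483818) stood at a log2 fold change of 0.048 according to the authors' deposited table, beside -0.14 for Cdk8. The guides of Cdk19 were also 2 up and 2 down, with an enrichment p of 0.0437 at an FDR of 0.985 and a depletion p of 0.267. The score of Cdk19 corresponds to 1 guide in the highest 0.188% or 2 guides in the highest 2.84%. Both kinases thus had an even split of guides, with the better p for depletion in Cdk8 and for enrichment in Cdk19. The enrichment p of Cdk8, 0.0611, was close to that of Cdk19. Such a split is common, since 1746 of the 16270 genes with 6 guides had 2 up and 2 down. The difference of Cdk8 minus Cdk19 was -0.18 and has no test.

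Med12, on the X chromosome from 101274091 to 101298934, activates the kinase, and had 0.21 with 3 guides up and 1 down according to the authors' deposited table. Its paralogue Med12l had -0.24 with none up and 3 down. Med13, which tethers the kinase module to the rest of Mediator, had -0.24 with 2 guides in each direction, and Med13l had 0.37 with 4 up and 1 down according to the authors' deposited table. The difference was 0.45 for Med12 minus Med12l and -0.62 for Med13 minus Med13l, so the 2 larger paralogue differences ran in opposite directions with respect to the l copy. None of these 4 genes had a p under 0.05, and the lowest was 0.196, the enrichment p of Med13l. Kinase module guides were 38.1% up (exact 95% interval 23.6 to 54.4) and 31.0% down (17.6 to 47.1) of 42.

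The partners of Mediator at the promoter were set beside it from 5 lists. All 12 subunits of RNA polymerase II were below 0, with a median log2 fold change of -0.44, beside 16 of 33 Mediator genes above 0. Over all genes 48.0% were above 0 and the median was -0.021. The highest polymerase subunit stood close to 0, at -0.0090. Polr2e and Polr2h, small subunits shared by the 3 nuclear polymerases, had depletion p-values of 0.0223 and 0.0422 according to the authors' deposited table, with values of -0.65 and -0.41. Neither had the lowest value of the list, which reached -1.46. Of 69 polymerase guides 56.5% were down (44.0 to 68.4), while 36.9% of Mediator guides were (30.1 to 44.1), beside 38.0% over all genes. The intervals cannot compare the lists, since they treat guides as independent although guides of 1 gene share a target. The difference between the lists was not tested.

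The 15 general transcription factor genes, which assemble with Mediator at promoters, had a median of 0.046, with 8 above 0. Gtf2h4, a subunit of TFIIH, had -0.55 and a depletion p of 0.0334 according to the authors' deposited table, and Gtf2b, the bridge to the polymerase, had -0.36 with a depletion p of 0.187. The 9 other transcription kinase genes and their cyclins were all below 0, with a median of -0.25. Among them Mnat1, which assembles the Cdk7 kinase, had -1.07 with 4 of 5 guides down and a depletion p of 0.0276, and Cdk9, the kinase of pause release, had -0.19 with 4 of 6 guides down according to the authors' deposited table. The kinase module of Mediator had 3 of 7 below 0.

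The super elongation complex, the partner of Med26, had a median of -0.019 over 9 genes, with 4 above 0. No gene of this list had an unadjusted p under 0.05 in either direction according to the authors' deposited table. With 5.02% of all genes passing for enrichment and 5.07% for depletion, 0 of 9 is not read as a trait of this complex. Cohesin and its loader, which meet Mediator at enhancers, had a median of -0.47 over 7 genes, with 1 above 0. Rad21 had -0.64 and p-values under 0.05 in both directions according to the authors' deposited table, 0.0105 for depletion and 0.029 for enrichment. Stag1 at -0.026 and Smc3 at -0.084 had enrichment p-values of 0.00739 and 0.0379 with fold changes below 0 according to the authors' deposited table. The loader Nipbl had -0.58 with a depletion p of 0.384. In the cohesin list 3 of 7 genes passed an unadjusted 0.05 for enrichment and 1 of 7 for depletion. Beside these stand 5.02% and 5.07% of all genes, and the difference was not tested. No gene of the 5 lists passed an FDR of 0.05 in either direction according to the authors' deposited table.

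**Figure D4:**
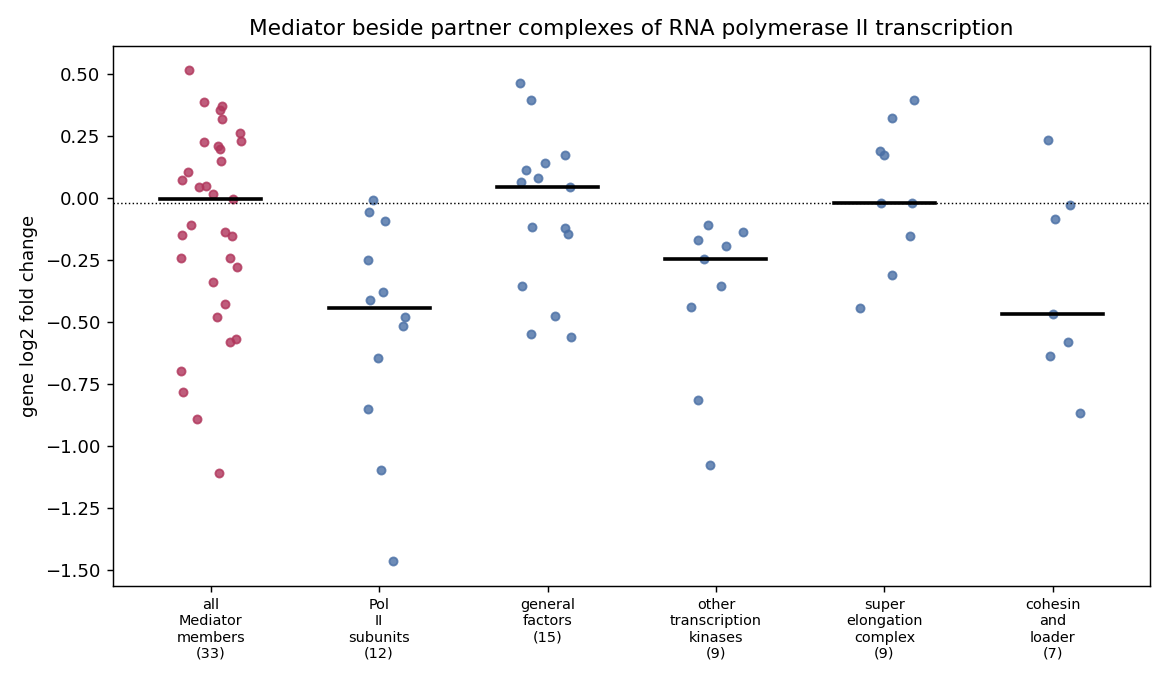
Log2 fold change (vertical axis) of the Mediator genes in red and of the genes of 5 partner lists in blue, with the number of genes in brackets. Each point is 1 gene, black bars are medians and the dotted line is the median of all genes. The 12 RNA polymerase II subunits all lie below 0, and the Mediator genes spread from -1.11 to 0.51.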

How the data were processed

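Guide abundance was measured in 4 libraries. Per the labels' protocols, guides were amplified from genomic DNA in a pair of PCR rounds. MAGeCK and mm10 are named in the submitters' processing notes, without version, settings or normalization. The authors deposited, per gene and direction, a p-value, a false discovery rate, a rank and a score, taken here as MAGeCK's rank aggregation score. They also deposited a log2 fold change per gene, whose base is taken from MAGeCK's use and is not stated in the file headers.

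Entries named as microRNAs (1132) or non-targeting guides (998) were left out of the 20380 genes. No model was fitted across genes, since the table holds no counts. The deposited p-values were taken as they are, with thresholds of 0.05. Medians, exact Clopper-Pearson intervals and the guide percentiles behind a score were computed with Python 3.11.15, pandas 2.3.3, NumPy 2.4.6 and SciPy 1.17.1. Only the guide percentiles and the adjustment of p-values over genes were tested on simulated data. Mediator modules and partner lists came from textbook knowledge, and the members and lists were chosen with earlier results of these data known. All Mediator genes are named. Of the partners, those with an unadjusted p under 0.05 in either direction, and Gtf2b, Nipbl and Cdk9, are named. A further partner list, of 3 genes, was left out for a reason unrelated to its values and is not reported here. Alternatives were the mean, centring on non-targeting guides, another module assignment, a guide minimum and other thresholds.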

Additional observations from a re-analysis of the deposited data

How the results depend on the processing

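Taking means in place of medians gave log2 fold changes of -0.11 for all Mediator genes, 0.057 for the head, -0.19 for the middle, -0.14 for the tail and 0.075 for the kinase module. Centring on the non-targeting guides gave -0.021, 0.028, -0.093, -0.17 and 0.029 in that order. With Med14 and Med26 in the middle module and Med27 to Med30 in the head, the middle median was -0.31, and those of head and tail stayed at 0.047 and -0.15. No sign turned under these alternatives. The place of Mediator beside all genes did turn, since the mean over all genes was -0.053, above the -0.11 of Mediator. By median, Mediator stood at -0.0018 and all genes at -0.021. At an unadjusted p under 0.01 in the authors' deposited table, 0 members were left for enrichment and 2, Cdk8 and Med26, for depletion. Asking for 5 guides changed nothing, since every member has 5 or 6. No member passed an FDR of 0.25, or 0.05 when p-values were adjusted over genes only, where the lowest value was 0.675 for depletion and 0.981 for enrichment.

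No paired analysis was possible because the table holds 1 value per gene and no value per library, and leaving out a library was not run for the same reason. At 3.84 sorted cells per guide, a missing call is not evidence of no effect.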
